A study of Mus musculus with 4 samples.

Results

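The genes described here are the effectors and the alarmin of the type 2 response in the small intestine of Cftr-null (CF) and wild type (WT) mice. They were chosen by name, and every probe set listed for 1 of them was taken with its signal on all 4 arrays. Of the 10 genes named (Retnlb, Retnla, Chil3, Chil4, Il33, Il1rl1, Il4ra, Il13ra1, Arg1 and Alox15), 9 had at least 1 probe set of their own, 15 probe sets in all of the 45101 on the array, and 1 more probe set was listed for both Chil4 and Chil3. Il1rl1, the IL-33 receptor chain, was not analysed here.

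The 4 groups were lubiprostone-treated CF mice (CF + lubiprostone), untreated CF mice (CF control), lubiprostone-treated WT mice (WT + lubiprostone) and untreated WT mice (WT control). CF mice carried the null allele Cftr-tm1Unc on the C57BL/6 background (C57BL/6J in the methods), WT mice were their littermates, and all mice were fed the liquid diet Peptamen, which keeps the CF intestine from becoming obstructed. Lubiprostone is a bicyclic fatty acid given for constipation, and treated mice received it by gavage at 10 µg/kg/day for 2 weeks. The controls are labelled as untreated, and a vehicle gavage, the ages and the sexes of the pooled mice were not given in the sources used here. Total RNA of the whole small intestine, mesentery removed, was pooled in equal amounts from 8 CF + lubiprostone, 10 CF control, 7 WT + lubiprostone and 10 WT control mice according to the deposited description (the methods give a smaller number for the WT control pool). One Affymetrix mouse whole-genome array was run per pool, so each group has 1 value per probe set, no difference can be set against a spread between mice, and no test was possible.

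The type 2 response is the immune programme best known from worm infection and allergy. Damaged or stressed cells release the alarmin IL-33, which acts through ST2 (encoded by Il1rl1) on mast cells and group 2 innate lymphoid cells, and these release IL-4 and IL-13. Both cytokines act through the IL-4 receptor alpha chain, which for IL-13 pairs with the IL-13 receptor alpha 1 chain, and switch on STAT6. In the mouse gut the effectors that follow include the goblet cell protein RELM-beta (Retnlb), its relative RELM-alpha (Retnla), the chitinase-like proteins Ym1 (Chil3) and Ym2 (Chil4), arginase 1 and the lipoxygenase encoded by Alox15.

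Signals are intensities in arbitrary units. The median signal was 119.6 for CF + lubiprostone, 109 for CF control, 123 for WT + lubiprostone and 124 for WT control. A signal below the median of its array is called dim here, and a fold against a dim signal is given as "at least", with the dim signal set to the median. A gene was countable in a comparison when a probe set reached the median on 1 of the arrays compared, and its log2 ratios were averaged over its probe sets. Where a gene had several probe sets, the average holds dim signals as measured unless stated. The limit for calling a gene higher or lower was 3-fold. Ratios of CF to WT are given for the controls (CF control to WT control) and for the treated pools (CF + lubiprostone to WT + lubiprostone). Ratios of lubiprostone to control are given in CF mice and in WT mice. Cftr, the targeted gene, had signals of 715 in CF + lubiprostone, 620.2 in CF control, 2226 in WT + lubiprostone and 2505 in WT control on its brighter probe set. At any size, 48.2% of all countable genes were higher in CF among the controls and 48.5% were lower with lubiprostone in CF mice. All 8 enterocyte markers with a probe set were countable. None of the 8 was higher in CF among the controls, and 7 were higher with lubiprostone in CF mice. Their summed signals were 228216 in CF + lubiprostone, 202513 in CF control, 278615 in WT + lubiprostone and 265240 in WT control, so CF control was the lowest. The pools also differed in tissue make-up: the summed signals of 6 pancreatic enzyme genes were 6447 in CF + lubiprostone, 26611 in CF control, 2422 in WT + lubiprostone and 25031 in WT control, so both treated pools were low. Genes of the sex chromosomes differed as well. Xist, the X inactivation RNA, had signals of 4062 in CF + lubiprostone, 2510 in CF control, 3683 in WT + lubiprostone and 1036 in WT control. Eif2s3y, a gene of the Y chromosome, had 805 in CF + lubiprostone, 884 in CF control, 829 in WT + lubiprostone and 1242 in WT control. The sex make-up of the pools may therefore differ in every comparison. The part of these differences in the results below was not tested. In whole-tissue RNA, fewer cells of a type and less RNA per cell cannot be told apart.

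Retnlb, Retnla, Chil4 and Alox15 had their highest signal in CF control and a lower one in CF + lubiprostone, while Chil3 and Arg1 were dim in all 4 pools. Retnlb, whose product RELM-beta is secreted by goblet cells into the lumen, had a signal of 2938 in CF + lubiprostone, 11850.5 in CF control, 16.3 in WT + lubiprostone and 8.20 in WT control. Only the CF pools were above the median, at the percentiles 94.3 in CF + lubiprostone and 98.7 in CF control. Among the controls the CF signal of Retnlb was at least 95.7-fold that of WT, the highest ratio of the 11806 countable genes whether dim signals were taken as measured or set to the median. With lubiprostone in CF mice it was 4.03-fold lower, and among the treated pools it was at least 24.0-fold higher in CF, at rank 1 of 11792 countable genes as measured and rank 3 with dim signals set to the median. Goblet cell markers differed far less. The summed signals of 7 goblet cell genes, all 7 above the median on at least 1 array, were 115648 in CF + lubiprostone, 125401 in CF control, 116213 in WT + lubiprostone and 108490 in WT control.

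Retnla lies next to Retnlb on chromosome 16 and encodes RELM-alpha, a product of macrophages activated by IL-4 and, in several tissues, of epithelium. Its signal was 202 in CF + lubiprostone, 471 in CF control, 131 in WT + lubiprostone and 172 in WT control. All 4 pools were above the median, with CF control the highest. Among the controls Retnla was 2.74-fold higher in CF, and with lubiprostone in CF mice it was 2.34-fold lower, both under the 3-fold limit. Among the treated pools it was 1.54-fold higher in CF, and in CF + lubiprostone it was at 1.17 times WT control.

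Chil4 encodes Ym2, a secreted chitinase-like protein with a place in type 2 inflammation. Its own probe set had signals of 28.2 in CF + lubiprostone, 1281 in CF control, 26.0 in WT + lubiprostone and 25.2 in WT control. Only CF control was above the median, and the other 3 pools were dim and close to each other. Among the controls Chil4 was at least 10.3-fold higher in CF. With lubiprostone in CF mice it was at least 10.7-fold lower and had the lowest ratio of 11795 countable genes with signals as measured. With dim signals raised to the median it was at rank 4 from the bottom. A probe set shared by Chil4 and Chil3 (1425451_s_at) had signals of 117 in CF + lubiprostone, 1732 in CF control, 41.5 in WT + lubiprostone and 7.65 in WT control. It too was above the median only in CF control. It was at least 14.0-fold higher in CF among the controls, and at least 14.5-fold lower with lubiprostone in CF mice. Chil3, the neighbour of Chil4 on chromosome 3, encodes Ym1, a product of alternatively activated macrophages. On the probe set listed for Chil3 alone, the signal was 93.5 in CF + lubiprostone, 16.3 in CF control, 16.8 in WT + lubiprostone and 1.26 in WT control. All 4 were dim, so no fold was given, and the pool with the high signal on the other probe sets, CF control, was not the highest here.

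The sequences at the starts of these 2 genes are shown because the genes are close relatives that share a probe set. Promoter windows are 250 bases before to 50 after the start of the gene, from RefSeq (GRCm38.p6), printed 5′ to 3′ in the direction of the gene. Capitals mark matches to the STAT6 type motifs TTCNNNGAA and TTCNNNNGAA, which read the same on both strands. The windows are chr3:106219430-106219729 for Chil4 and chr3:106167515-106167814 for Chil3, both on the minus strand, and chr16:48842359-48842658 on the plus strand for Retnla.
Chil4: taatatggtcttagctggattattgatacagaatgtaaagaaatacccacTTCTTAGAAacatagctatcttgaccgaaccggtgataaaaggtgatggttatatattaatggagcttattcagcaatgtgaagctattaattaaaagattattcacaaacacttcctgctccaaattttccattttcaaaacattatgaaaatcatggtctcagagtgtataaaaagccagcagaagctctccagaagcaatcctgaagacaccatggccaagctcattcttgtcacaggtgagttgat
Chil3: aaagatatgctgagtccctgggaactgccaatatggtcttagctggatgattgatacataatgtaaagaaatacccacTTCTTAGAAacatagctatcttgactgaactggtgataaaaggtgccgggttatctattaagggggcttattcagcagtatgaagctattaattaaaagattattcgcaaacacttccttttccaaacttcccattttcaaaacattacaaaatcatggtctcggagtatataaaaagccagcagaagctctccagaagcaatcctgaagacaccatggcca
Retnla: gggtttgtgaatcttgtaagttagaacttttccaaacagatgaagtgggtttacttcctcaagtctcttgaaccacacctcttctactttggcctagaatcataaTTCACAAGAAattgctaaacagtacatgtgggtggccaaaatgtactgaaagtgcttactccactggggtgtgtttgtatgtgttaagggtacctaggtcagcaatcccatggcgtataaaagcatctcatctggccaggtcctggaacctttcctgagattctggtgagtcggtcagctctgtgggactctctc
In a global alignment of the Chil4 and Chil3 windows, 76.3% of 329 columns were identical. Gaps took 58 of these columns, and 92.6% of the other 271 were identical. Both windows hold the same match, TTCTTAGAA, with its first base 28 bases farther from the start in Chil4 than in Chil3. Retnla holds a match with the wider spacing, TTCACAAGAA. Retnla and Chil3 are shown here after their values were seen. The promoter table listed 9 windows for 7 of the 10 genes, and 4 windows held a match. The fourth was 1 of the 2 windows of Il33. Retnlb, Arg1 and Alox15 had no window there, so their promoters were not searched. Of all 32851 windows of this length, 14.6% held a match to at least 1 of the motifs (8.30% and 6.95% for the shorter and the longer spacing), and a match is a description of the letters only.

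**Figure D1:**
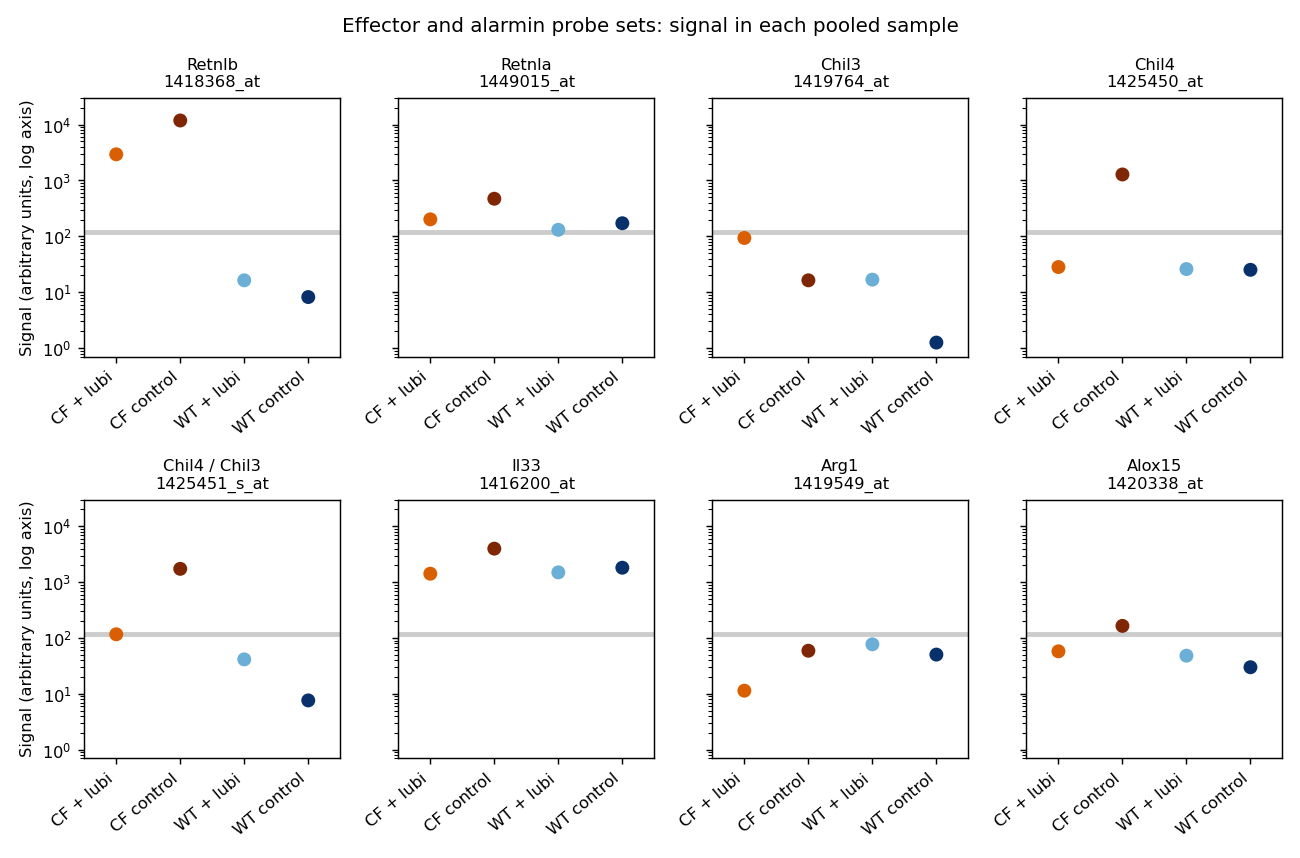
Signal (arbitrary units, log axis) of each effector and alarmin probe set in the CF + lubiprostone, CF control, WT + lubiprostone and WT control pools, 1 point per pooled sample ("lubi" stands for lubiprostone). The grey band spans the medians of the 4 arrays. Retnlb was at 11850.5 in CF control and 8.20 in WT control, and Chil3 and Arg1 were dim in all 4 pools.

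Il33, the alarmin, was bright in all 4 pools. Its signal was 1418 in CF + lubiprostone, 3981 in CF control, 1497 in WT + lubiprostone and 1814 in WT control. CF control stood above the other 3 pools, and CF + lubiprostone was the lowest. Among the controls Il33 was 2.19-fold higher in CF. With lubiprostone in CF mice it was 2.81-fold lower. It lay at rank 104 of 11795 genes from the lowest in the second of these ratios, and at rank 28 once dim signals were raised to the median. The ratio of CF to WT among the treated pools was 0.947, and the ratio of lubiprostone to control in WT mice was 0.826.

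The pattern of Il33 over the 4 arrays was most like those of genes that include 3 collagen genes. Likeness was measured as the Euclidean distance over the 3 log2 ratios to WT control, among 7411 genes that reached the 75th percentile of at least 1 array, after dim signals were raised to the median. The 5 nearest genes were Col1a1, Tufm, Col3a1, Col5a2 and Lgals1, at distances of 0.22, 0.26, 0.27, 0.28 and 0.32. Col3a1, a chain of fibrillar collagen, had signals of 5845 in CF + lubiprostone, 13244 in CF control, 5899 in WT + lubiprostone and 7840.1 in WT control. Of 7 stromal fibroblast markers, all 7 countable, 6 were higher in CF among the controls (48.2% of all genes) and 6 were lower with lubiprostone in CF mice (48.5% of all genes). Their summed signals were 8099.8 in CF + lubiprostone, 14512 in CF control, 7419 in WT + lubiprostone and 9034 in WT control. The part of stromal RNA in the Il33 signal was not tested.

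By the same measure, the genes nearest to Chil4 were the calpain gene Capn13 at a distance of 0.31 and the trypsin gene Prss3 at 0.87. The mast cell genes Mcpt2 at 0.93 and Cpa3 at 1.08 came next, followed by Cd55 at 1.81. Chil4 was dim in every pool but CF control. Its log2 ratios of -0.05 for CF + lubiprostone and -0.02 for WT + lubiprostone were thus ratios of array medians. Prss3 had the same values. A gene bright only in CF control is near Chil4 by construction, so this likeness supports nothing. The genes nearest to Retnlb were farther away. The first was Lrg1, an acute phase glycoprotein, at 2.18, followed by Pla2g4c, Mcpt1, Slfn2 and Chst4 at distances up to 4.07. Retnlb was dim in both WT pools, so its ratio for WT + lubiprostone was also set by the array medians. Lrg1 differed from Retnlb in CF mice, with signals of 3399 in CF + lubiprostone, 2629.9 in CF control, 123 in WT + lubiprostone and 59.1 in WT control, and so was not lower in the treated CF pool.

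The receptor chains did not follow the effectors. Il4ra encodes the chain shared by the receptors for IL-4 and IL-13, and it had 3 probe sets. On 1421034_a_at the signal was 1114 in CF + lubiprostone, 669.8 in CF control, 483 in WT + lubiprostone and 404 in WT control. On 1423996_a_at it was 600.4 in CF + lubiprostone, 471 in CF control, 291 in WT + lubiprostone and 217 in WT control. These brighter probe sets ran in the same order, with CF + lubiprostone highest and WT control lowest. They were 1.66-fold and 2.17-fold higher in CF among the controls, and 1.66-fold and 1.28-fold higher with lubiprostone in CF mice. The third, 1447858_x_at, was dim in 3 of the 4 pools, with signals of 126 in CF + lubiprostone, 54.6 in CF control, 31.0 in WT + lubiprostone and 87.5 in WT control. Averaged over the 3 probe sets, Il4ra was 1.31-fold higher in CF among the controls (SD between probe sets 0.95 on the log2 scale) and 2.69-fold higher in CF among the treated pools (SD 0.53). With lubiprostone in CF mice it was 1.70-fold higher (SD 0.43). These averages take 1447858_x_at as measured. With its dim signals raised to the median, Il4ra was 1.47-fold higher in CF among the controls, 1.70-fold higher in CF among the treated pools and 1.35-fold higher with lubiprostone in CF mice. The brighter probe sets were 2.30-fold and 2.06-fold higher in CF among the treated pools. The ratio of lubiprostone to control in WT mice was 0.828, with the brighter probe sets at 1.20 and 1.34, so the direction in WT mice rests on the dim probe set.

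Il13ra1, on the X chromosome, encodes the chain that binds IL-13, and its 5 probe sets included 4 that were bright in every pool. These 4 had signals between 1809 and 2668 in CF + lubiprostone, between 2629.5 and 3367 in CF control, between 2128 and 2813 in WT + lubiprostone and between 2806 and 3776 in WT control. On each of them the treated pool was lower than the control pool of its genotype, while CF and WT differed little. The ratio of lubiprostone to control was between 0.646 and 0.805 in CF mice and between 0.709 and 0.776 in WT mice, and the ratio of CF to WT among the controls was between 0.878 and 1.01. The pools low in Il13ra1 were also those low in pancreatic enzyme genes and high in Xist, the X inactivation RNA of female cells. Xist had signals of 4062 in CF + lubiprostone, 2509.9 in CF control, 3683 in WT + lubiprostone and 1036 in WT control, and the part of these differences in the Il13ra1 signal was not tested. The dimmer probe set, 1425625_at, had signals of 139 in CF + lubiprostone, 114 in CF control, 85.9 in WT + lubiprostone and 176 in WT control, and was not lower in the treated CF pool. Over all 5 probe sets, the ratio of lubiprostone to control was 0.795 in CF mice (SD between probe sets 0.37 on the log2 scale) and 0.686 in WT mice (SD 0.28).

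**Figure D2:**
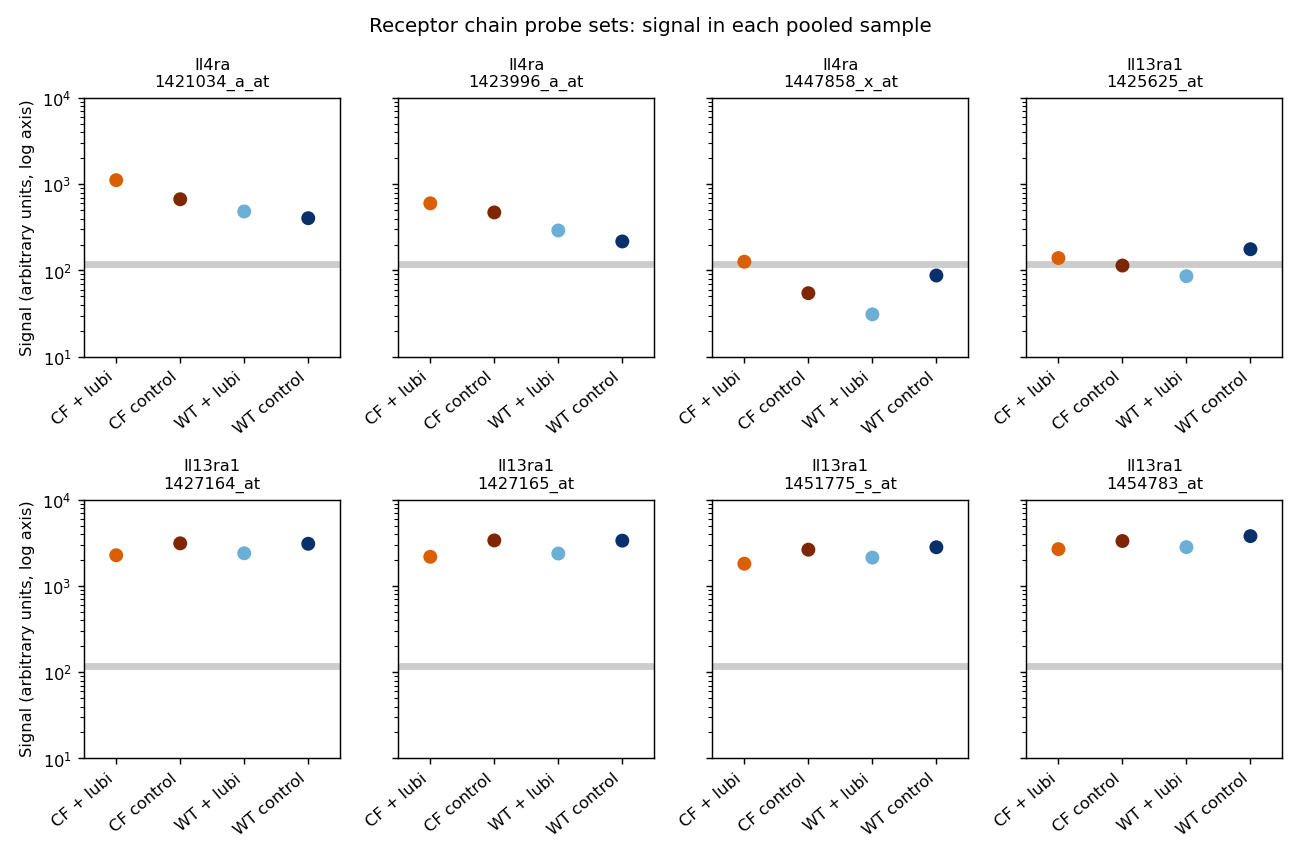
Signal (arbitrary units, log axis) of the 3 Il4ra and 5 Il13ra1 probe sets in the CF + lubiprostone, CF control, WT + lubiprostone and WT control pools, 1 point per pooled sample, with a grey band for the medians of the 4 arrays. The brighter Il4ra probe sets were highest in CF + lubiprostone, and the 4 brighter Il13ra1 probe sets were lower in each treated pool than in its control.

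The enzymes were near the limit of measurement. Arg1, which breaks down arginine and marks alternatively activated macrophages as well as liver, had signals of 11.4 in CF + lubiprostone, 59.3 in CF control, 77.3 in WT + lubiprostone and 50.6 in WT control. All 4 were dim, and no fold was given. Alox15, a lipoxygenase of macrophages and eosinophils, had signals of 57.9 in CF + lubiprostone, 165 in CF control, 48.3 in WT + lubiprostone and 30.0 in WT control. Only CF control was above the median, and Alox15 was at least 1.33-fold higher there than in WT control. With lubiprostone in CF mice it was at least 1.38-fold lower. With signals as measured its ratio of CF to WT among the controls was 5.50.

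Of the 9 genes with a probe set, 7 reached the median on at least 1 array, and Chil3 and Arg1 did not. A gene that reached it only through CF control, as Chil4 and Alox15 did, had to be higher there. Retnlb reached it only in the 2 CF pools, so it too had to be higher in CF than in WT. The counts over the 7 therefore describe the arrays and support nothing. Among the controls, 3 of 7 (Retnlb, Chil4 and Alox15) were at least 3-fold higher in CF, against 1.16% of all genes, and none was at least 3-fold lower, against 1.82%. With dim signals raised to the median, Retnlb and Chil4 passed (2 of 7), against 0.491% of all genes. At any size 6 of 7 were higher in CF, all but Il13ra1, against 48.2%. The median log2 ratio of the 7 was 1.46, and that of all genes was -0.02. With lubiprostone in CF mice, 2 of 7 (Retnlb and Chil4) were at least 3-fold lower, against 0.738% of all genes, and none was at least 3-fold higher, against 0.941%. The same 2 passed with dim signals raised to the median, against 0.212%. At any size 6 of 7 were lower, all but Il4ra, against 48.5%. The median there was -1.49, beside 0.01 for all genes, and as measured Retnlb, Chil4, Il33 and Alox15 lay below the first percentile of all genes. For Alox15 this rests on a dim signal. With dim signals raised to the median, the ranks from the lowest of 11795 genes were 4 for Chil4, 20 for Retnlb, 28 for Il33, 50 for Retnla and 762 for Alox15. Both comparisons use the CF control array, so that a high value on it alone would give both.

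In WT mice 4 of the genes were countable (Retnla, Il33, Il4ra and Il13ra1), and none differed 3-fold with lubiprostone in either direction, against 0.488% higher and 0.573% lower of all genes. All 4 were lower at any size, against 50.5%, but the direction of Il4ra turned when dim signals were set to it (0.22 on the log2 scale). Their median log2 ratio was -0.33, with values between -0.54 for Il13ra1 and -0.27 for Il4ra. Among the treated pools, whose arrays are not those of the controls, 5 genes were countable. Retnlb was the only 1 at least 3-fold higher in CF, against 1.27% of all genes, with none at least 3-fold lower, against 1.25%. As Retnlb was countable there only through CF + lubiprostone, this count supports nothing. The ratios of CF to WT among the treated pools and among the controls were at least 24.0 and at least 95.7 for Retnlb, 1.54 and 2.74 for Retnla, 0.947 and 2.19 for Il33, and 1.03 and 0.885 for Il13ra1. For Il4ra they were 2.69 and 1.31 as measured, but 1.70 and 1.47 with dim signals raised to the median. The gap between them thus rests largely on the dim probe set. The brighter probe sets gave 2.30 and 1.66 on 1421034_a_at, but 2.06 and 2.17 on 1423996_a_at. Against WT control, CF + lubiprostone had Retnlb at least 23.7-fold higher (1.42% of all genes passed 3-fold upwards and 1.58% downwards), Il33 at 0.781, Il4ra at 2.23 (1.98 with dim signals raised to the median) and Il13ra1 at 0.703.

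**Figure D3:**
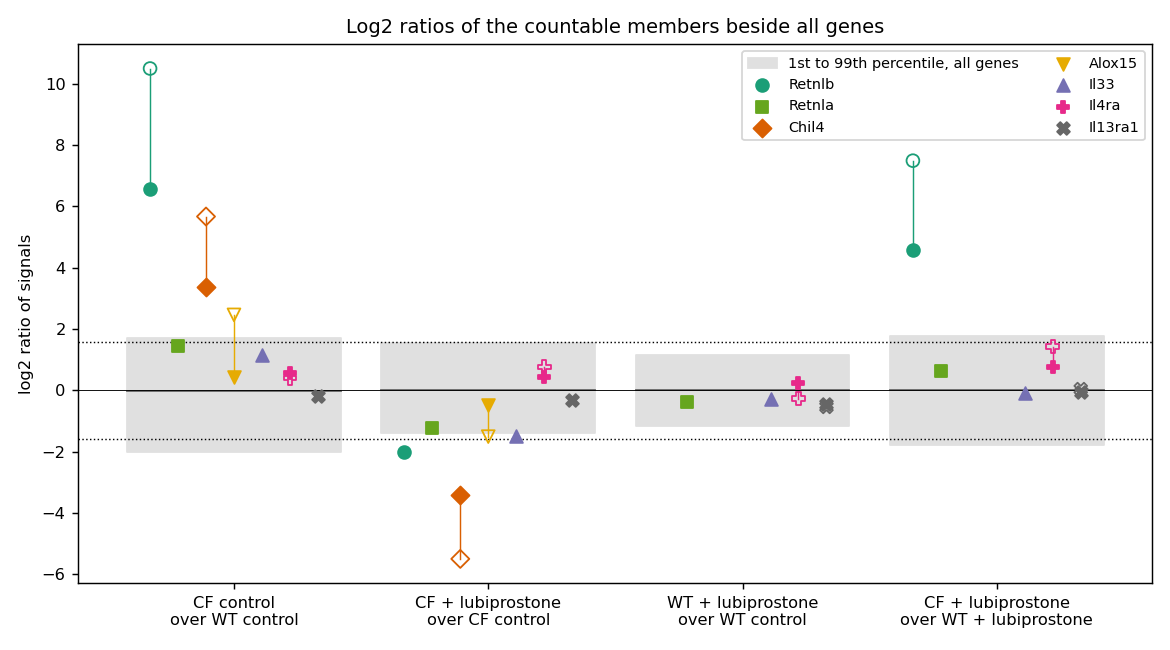
Log2 ratio of signals for the countable genes in 4 comparisons, each point 1 gene averaged over its probe sets. Filled symbols have dim signals set to the array median and open symbols are as measured. Grey boxes span the 1st to 99th percentile of all genes with signals as measured, with a line at the median. The boxes are therefore on the scale of the open symbols. Dotted lines mark 3-fold. Retnlb was outside the box in each comparison of CF with WT. Retnlb, Chil4 and Il33 lay below it with lubiprostone in CF mice, and Alox15 did only as measured.

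Type 2 cytokine genes were not above the median in whole intestine. Of 10 type 2 cytokine genes, 9 had a probe set (Il4, Il5, Il9, Il13, Il25, Tslp, Il31, Il3 and Csf2) and all 9 were dim on all 4 arrays. Il4 had signals of 45.4 in CF + lubiprostone, 52.4 in CF control, 54.0 in WT + lubiprostone and 44.7 in WT control. Il25, the tuft cell cytokine, had 2.08 in CF + lubiprostone, 9.21 in CF control, 3.13 in WT + lubiprostone and 2.83 in WT control. Dim signals do not show that a transcript is absent.

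Other receptors and signalling genes of the pathway reached the median for the most part. Of 7 countable type 2 cytokine receptor genes, 3 were higher and 4 lower in CF among the controls (48.2% of all genes were higher), and none passed 3-fold. Among the treated pools all 7 were higher in CF (50.3% of all genes), with a median log2 ratio of 0.49 and none past 3-fold. Crlf2, the TSLP receptor chain, was 1.87-fold higher in CF among the controls and had a ratio of lubiprostone to control in CF mice of 0.782, and Osmr, the oncostatin M receptor, had ratios of 1.17 and 0.986. Of 14 countable genes of the IL-1 family and its signalling, to which IL-33 belongs, 9 were higher in CF among the controls (48.2% of all genes) and 10 were higher with lubiprostone in CF mice (51.5% of all genes), with none past 3-fold. Il18, another cytokine of the family, had ratios of 1.01 and 1.31 in these comparisons, and the adaptor gene Myd88 1.35 and 1.25. Of 16 countable JAK-STAT6 genes, 10 were higher in CF among the controls (48.2% of all genes), and 2 passed 3-fold upwards (1.16% of all genes). These were Socs3, a feedback inhibitor of cytokine receptors, at 3.58-fold, and Socs1, another, which was dim in WT control, at least 1.32-fold (3.65-fold as measured). Stat6 itself had a ratio of CF to WT among the controls of 1.01 and of lubiprostone to control in CF mice of 1.05.

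Of 14 countable genes that respond to IL-13 in goblet cells and epithelium, 11 were higher in CF among the controls (48.2% of all genes) and 11 were lower with lubiprostone in CF mice (48.5% of all genes), with median log2 ratios of 0.65 and -0.23. All 7 goblet cell genes summed above are in this list, so the 2 sets are not separate. Of these 7, 5 were higher in CF among the controls and 5 lower with lubiprostone in CF mice. The list of 14 was drawn up with results of these arrays known, and the study had picked Pla2g4c and Gsdmc2 from them. Pla2g4c, a phospholipase A2, and Gsdmc2, a gasdermin, were the 2 that passed 3-fold both ways. With lubiprostone in WT mice Gsdmc2 was also at least 3-fold lower (0.573% of all genes), while 10 of the 14 were higher at any size. Pla2g4c had signals of 3989 in CF + lubiprostone, 14835 in CF control, 113 in WT + lubiprostone and 403 in WT control on its brightest probe set. The fall in these genes was thus not limited to CF mice. Clca1, a secreted goblet cell protein named after its values were seen, had signals of 15894 in CF + lubiprostone, 28374 in CF control, 15292 in WT + lubiprostone and 14678 in WT control. Genes of alternatively activated macrophages, which make Retnla, Chil3 and Arg1, had median log2 ratios of 0.12 and -0.14 over 9 and 10 countable genes, with none past 3-fold. Of this list Klf4, a transcription factor also made by goblet cells, had ratios of 1.16 and 1.24, and Tgm2, a transglutaminase, 2.30 and 1.04.

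Markers of the cells that respond to IL-33 differed among themselves. Mast cell genes were highest in CF control as a sum, which Mcpt1 and Mcpt2 make up for the most part. The summed signals were 1297 in CF + lubiprostone, 10505 in CF control, 732 in WT + lubiprostone and 1055 in WT control, over 11 genes of which 6 were dim on all arrays (Ms4a2, Cma1, Mcpt4, Tpsb2, Tpsab1 and Hdc). Mcpt1 and Mcpt2, mucosal mast cell proteases, were 40.7-fold and 14.2-fold higher in CF among the controls. Of the 5 countable genes, 4 (Mcpt1, Mcpt2, Cpa3 and Fcer1a) were at least 3-fold higher in CF among the controls as measured (1.16% of all genes). The same 4 were at least 3-fold lower with lubiprostone in CF mice (0.738% of all genes). Cpa3 and Fcer1a were dim in both WT pools, and Fcer1a was dim in CF + lubiprostone as well. They were counted among the controls only through CF control, so the filter leaned towards a higher signal there, and these counts support nothing. Kit, the receptor that defines mast cells among others, was not high in CF control: its signal was 364 in CF + lubiprostone, 473 in CF control, 476 in WT + lubiprostone and 561 in WT control. For group 2 innate lymphoid cells, 5 of 8 genes with a probe set were countable, and Gata3, Il5 and Il13 were dim. Their summed signals were 1688 in CF + lubiprostone, 1648 in CF control, 1046 in WT + lubiprostone and 1109 in WT control. The sum hides a split: of the 5 countable genes, 2 were higher and 3 lower in CF among the controls (48.2% of all genes were higher). Their median log2 ratio was -0.09. Among the treated pools all 5 were higher in CF (50.3% of all genes), with a median log2 ratio of 0.57. Il7r and Il17rb are also in the list of cytokine receptors. Macrophage markers, all 9 countable, summed to 14493 in CF + lubiprostone, 14419 in CF control, 16611 in WT + lubiprostone and 17164 in WT control. Of the eosinophil markers with a probe set only Siglecf reached the median, and Prg2, Epx, Ccr3 and Il5ra were dim on all arrays. Siglecf had a ratio of CF to WT among the controls of 1.43 and of lubiprostone to control in CF mice of 0.481. Of the tuft cell markers 4 of 5 countable genes were higher in CF among the controls (48.2% of all genes) and 4 of 5 were lower with lubiprostone in CF mice (48.5% of all genes), with summed signals of 864 in CF + lubiprostone, 1294 in CF control, 974 in WT + lubiprostone and 959 in WT control. The part of each cell type in the signals of the effectors was not tested. Of 6 liver markers with a probe set, Alb, Fgb and Ahsg were dim on all arrays, and Ttr, Apoh and Cps1 were not. The summed signals of the 6 were 13444 in CF + lubiprostone, 16923 in CF control, 16213 in WT + lubiprostone and 15689.8 in WT control.

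**Figure D4:**
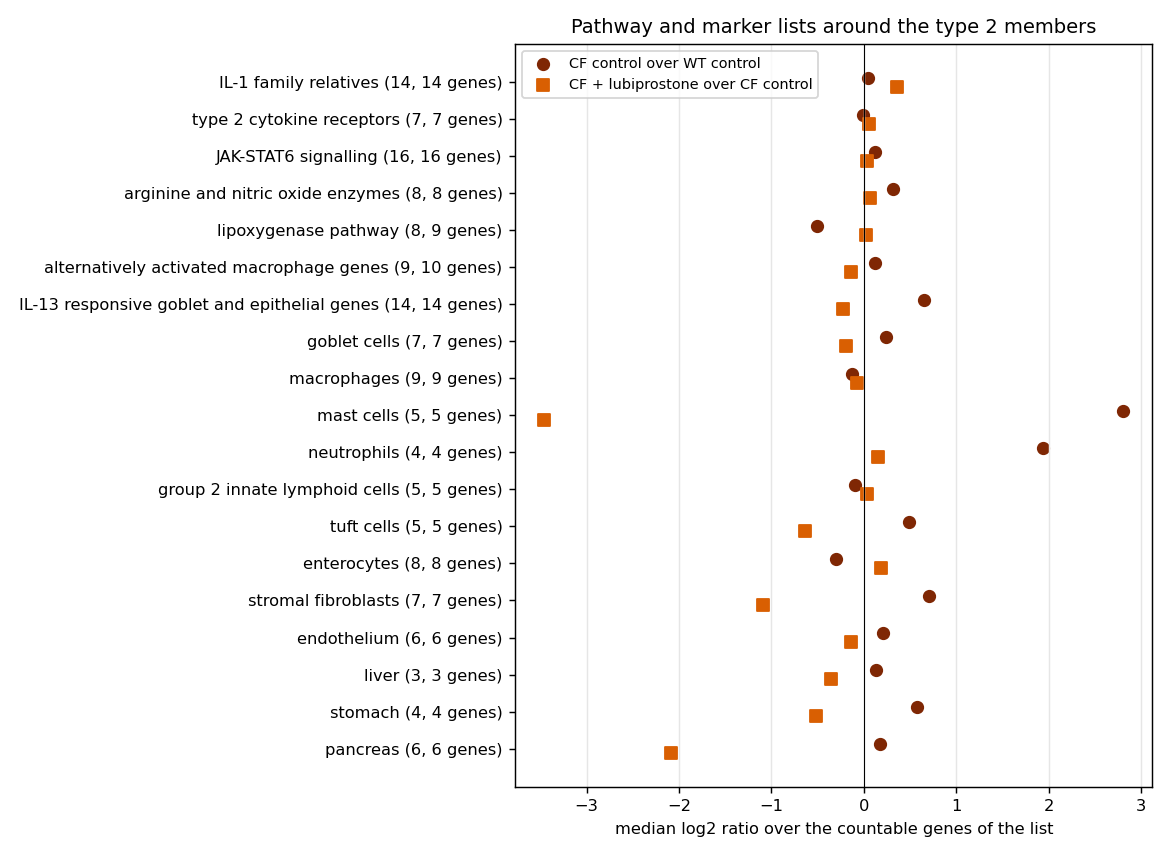
Median log2 ratio of each pathway and marker list with at least 3 countable genes, for CF to WT among the controls (circles) and lubiprostone to control in CF mice (squares), with the number of countable genes in each. Mast cell genes had the widest swing, pancreatic enzyme genes were low only in the second comparison, and the JAK-STAT6 list lay near 0.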

How the data were processed

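Small intestinal RNA of 4 groups of mice was pooled by group and run on 1 Affymetrix mouse array per pool. The deposited intensity values are signals on a linear scale that the authors made with GCOS and MAS5 (submitters' processing notes), which reduce each probe set to a single value and scale every array, and no detection or change calls were used here. The depth of an array is not given by counts, and 1 array per group limits the precision. Of 45101 probe sets, 34958 carry 1 gene symbol in the platform annotation, 932 carry several and 9211 are not named. Symbols were updated by gene identifier for 34754. Those with several symbols entered no count. Probe sets at or above the median on at least 1 array were kept (21756 probe sets, 12259 genes), log2 ratios were averaged per gene, and the limit was 3-fold. Named genes were the members with all their probe sets, the 2 brightest genes of each list and list genes past 3-fold that reached the 75th percentile, and others are said to be chosen later or belong to a small count. The members and lists were chosen with earlier results of these data known. Alternatives were 2 other scalings, 2 filters, a floor at the median, 2 ways to combine probe sets, and 50 signal units added. Probe sets of 1 gene differed by a median SD of 0.24 on the log2 scale for CF to WT among the controls, and of 0.26 for lubiprostone to control in CF mice. The steps were tested on simulated data. Promoters came from RefSeq (GRCm38.p6), and were aligned globally with Biopython 1.88. Python 3.11.15, numpy 2.4.6, pandas 2.3.3 and matplotlib 3.10.9 were used. The study's qRT-PCR was not used here.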

Additional observations from a re-analysis of the deposited data

Results flagged for a closer look

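The probe set that Chil4 and Chil3 share was left out of the counts because it names 2 genes, and its signal in CF control was above those of the WT pools. It had 117 in CF + lubiprostone, 1732 in CF control, 41.5 in WT + lubiprostone and 7.65 in WT control.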

How the results depend on the processing

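No paired analysis was possible because each group has 1 pooled sample with no replicate number. No ratio past 3-fold changed sign under any of the 8 alternatives. Of 219 ratios of single genes recomputed, 190 moved by less than the median SD between probe sets of a gene and 29 moved by more. Part of the 190 was fixed in advance. Retnlb, Retnla, Chil4, Il33 and Alox15 have 1 probe set each, so the filters and the ways to combine probe sets could not change their ratios. Scaling to the same median shifts all ratios of a comparison equally, and by less than that SD. Il4ra with lubiprostone in WT mice was not past 3-fold and ran between -0.27 and 0.34 on the log2 scale. Scaling all arrays to the same median shifted the median of all genes by 0.18 for CF to WT among the controls and by -0.13 for lubiprostone to control in CF mice, and 4 genes were then past 3-fold with lubiprostone in CF (Il33 and Alox15 besides Retnlb and Chil4), in place of 2. Among the controls 4 were then past 3-fold in place of 3, with Retnla at 1.64 on the log2 scale. With no filter on dim probe sets, Chil3 and Arg1 were counted too: the genes past 3-fold became 4 in CF control over WT control, 4 in CF + lubiprostone over CF control, 1 in WT + lubiprostone over WT control, 3 among the treated pools and 3 in CF + lubiprostone over WT control, and the medians became 0.046 for lubiprostone to control in WT mice and 0.26 for CF to WT among the treated pools. Raising dim signals to the median gave medians of 1.13 for CF to WT among the controls and -1.22 for lubiprostone to control in CF mice. With 50 signal units added the median in CF + lubiprostone over CF control was -1.05. With a filter at the 75th percentile, which left 4 genes countable, CF + lubiprostone over WT control had a median of 0.55. Dim signals limit Retnlb (in WT pools), Chil3, Chil4, Arg1, Alox15 and the third probe set of Il4ra, and these arrays hold no spread between mice or pools.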

Other observations

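As a sum, neutrophil genes were not lower in the treated CF pool than in CF control. The summed signals of 8 neutrophil genes were 1359 in CF + lubiprostone, 1178 in CF control, 535 in WT + lubiprostone and 303 in WT control, with Mpo, Camp and Cxcr2 dim on all arrays. S100a8, a subunit of calprotectin, had signals of 362 in CF + lubiprostone, 322 in CF control, 51.4 in WT + lubiprostone and 71.9 in WT control. Ltf, the lactoferrin gene, had 443 in CF + lubiprostone, 261 in CF control, 132 in WT + lubiprostone and 79.2 in WT control, and was 3.36-fold higher in CF among the treated pools. Socs3 ran the same way, with signals of 13848 in CF + lubiprostone, 6764 in CF control, 3034 in WT + lubiprostone and 1885 in WT control on its brightest probe set.

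Arg2, the mitochondrial arginase, was above the median on all 4 arrays. Its signals were 7231 in CF + lubiprostone, 6019 in CF control, 18251 in WT + lubiprostone and 16020 in WT control, and it was 2.74-fold lower in CF among the controls.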
